A study of Mus musculus with 6 samples.

Results

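TRBV3 is 1 of the 29 T-cell receptor beta variable (V) segments listed in the rearrangement tables of splenic T follicular regulatory (Tfr) cells. Its members are the rows whose deposited V call was TRBV3. There were 450 such rearrangements of 4409 listed, carrying 721 of 7043 templates. These cells were sorted from the spleens of 3 mice of genotype Foxp3GFP, in which GFP reports Foxp3, and the labels call them mouse CD4 T cells. From each mouse came a superior and an inferior sample, by title, which makes 3 samples per group. The labels do not say what superior and inferior mean, and neither a treatment nor an age is given for any sample. Libraries were made from genomic DNA with Adaptive Biotechnologies' immunoSEQ assay for mouse TCRB, at its survey depth. The Tfr label could not be checked, since the tables hold receptor DNA and no marker genes.

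A T-cell receptor beta chain is built by joining a V, a D and a J segment in the developing thymocyte. Bases are trimmed from the segment ends and others are added without a template, so the third complementarity-determining region (CDR3), which spans the joins, differs from clone to clone. The V segment encodes the other contact loops and the first residues of the CDR3. The TRBD1 segment lies before the TRBJ1 cluster and TRBD2 lies between that cluster and the TRBJ2 cluster, so TRBD2 normally joins the TRBJ2 segments. Tfr cells, which express Foxp3, enter the B-cell follicle and restrain the germinal centre response.

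The Trbv3 gene lies on chromosome 6 of mm10 at chr6:41048394-41048824, and RefSeq annotates it as a V segment of 431 bases. It is the third V segment of the locus, 398 bases beyond the end of Trbv2 and 10618 bases before the start of Trbv4. The first D segment, Trbd1, starts 484376 bases beyond the end of Trbv3. A deposited read covered 87 bases, with only the end of the V segment in it.

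The sequences that carry the findings are shown first. The consensus of the TRBV3 reads is given as far as most templates held the same base at a position. No germline sequence was available, so the true end of the V segment was not known. Its CDR3 part is in capitals, beginning at the codon of the cysteine that is CDR3 position 1.
TRBV3 consensus: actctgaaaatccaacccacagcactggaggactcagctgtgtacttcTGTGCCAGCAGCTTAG

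The TRBV3 clonotypes whose sizes the results below turn on follow. Each is numbered by its mouse and its order of size among TRBV3 clonotypes there, and is shown from the cysteine codon to the end of the read, which stops before the codon of the last CDR3 residue. Capitals mark the bases from the first that departs from the consensus, or that lies beyond its end. They take in D bases, untemplated bases and the J segment, with any V bases beyond the consensus. Lower-case bases near the join can match the consensus without coming from the V segment.
Clonotype 1-1, TRBJ2-7: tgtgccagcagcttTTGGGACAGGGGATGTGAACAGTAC
Clonotype 1-2, TRBJ2-7: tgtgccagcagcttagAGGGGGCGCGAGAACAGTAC
Clonotype 2-1, TRBJ1-2: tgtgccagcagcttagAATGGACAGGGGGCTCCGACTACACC
Clonotype 2-3, TRBJ2-7: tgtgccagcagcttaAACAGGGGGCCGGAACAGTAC
Clonotype 2-4, TRBJ2-7: tgtgccagcagTAGGGACAGACAGTAC
Clonotype 3-2, TRBJ1-2: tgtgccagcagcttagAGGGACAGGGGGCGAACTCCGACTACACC
Clonotype 3-3, TRBJ2-7: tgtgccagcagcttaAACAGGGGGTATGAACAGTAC
Clonotype 3-4, TRBJ2-7: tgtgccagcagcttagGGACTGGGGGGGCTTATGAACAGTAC
Clonotype 3-5, TRBJ1-3: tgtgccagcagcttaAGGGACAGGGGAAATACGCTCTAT

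Most of these clonotypes matched 15 or 16 bases of the consensus from the cysteine codon on, while clonotype 2-4 matched 11. Clonotypes 2-3 and 3-3, from different mice, encode CDR3s 1 residue apart, and the comparison is repeated with capitals on the 3 bases in which they differ.
Clonotype 2-3, mouse 2: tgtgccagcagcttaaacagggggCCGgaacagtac
Clonotype 3-3, mouse 3: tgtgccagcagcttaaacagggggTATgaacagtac

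The TRBV3 clonotypes found in more than 1 mouse by CDR3 residues and J segment are shown last. Capitals mark the bases that differ between nucleotide forms of the same CDR3.
Public clonotype 1, form in mouse 1: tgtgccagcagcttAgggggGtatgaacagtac
Public clonotype 1, form in mice 1 and 2: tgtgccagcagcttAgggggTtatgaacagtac
Public clonotype 1, form in mouse 2: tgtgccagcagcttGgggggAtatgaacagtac
Public clonotype 2, form in mice 1 and 2: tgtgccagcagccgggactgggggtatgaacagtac
Public clonotype 3, form in mice 1 and 3: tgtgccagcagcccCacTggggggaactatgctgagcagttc
Public clonotype 3, form in mouse 3: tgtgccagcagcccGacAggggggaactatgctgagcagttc

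The count deposited per rearrangement is called a template here, although no header says whether templates or reads were counted. Totals were between 667 and 1855 templates per sample, so a sample held between 67 and 187 TRBV3 templates. The 95% Wilson intervals below cover counting error only. Samples of the same number come from the same mouse, and the mouse was the replicate.

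TRBV3 was among the 4 most used V segments in every sample, and its share was higher in the superior sample of each mouse, with counting intervals that overlapped. In mouse 1 it held 67 of 667 templates in the superior sample (10.04%, interval 7.99% to 12.6%), against 120 of 1370 in the inferior one (8.76%, interval 7.38% to 10.4%). In mouse 2 it held 110 of 1095 templates in the superior sample (10.05%), against 91 of 920 (9.89%, interval 8.13% to 11.99%) in the inferior sample. The mouse 2 superior share had an interval of 8.40% to 11.97%, so the samples of mouse 2 differed by less than their counting error. In mouse 3 it held 146 of 1136 templates in the superior sample (12.9%, interval 11.0% to 14.9%), against 187 of 1855 in the inferior sample (10.1%, interval 8.79% to 11.5%). Mouse 3 had the widest gap between its samples.

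The superior samples averaged a higher TRBV3 share than the inferior samples, in 3 of 3 mice, by a difference that edgeR's quasi-likelihood test did not call (log2 fold change 0.20, SE 0.16, adjusted p = 0.898 over 23 V segments). Of those 23 V segments, 0 passed an adjusted p of 0.05, a background of 0%, and 2 had an unadjusted p under 0.05; DESeq2 called 0 as well. Counted by distinct rearrangements, TRBV3 averaged 10.7% ± 1.65 in the superior samples and 9.76% ± 1.31 in the inferior samples (SD, n = 3 each). By that measure 2 of 3 mice had the higher share in their superior sample.

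By its mean share over the 6 samples, TRBV3 stood in the third place at 10.3% ± 1.36 (SD over the 6 samples). TRBV13-2 averaged 11.9% ± 2.99, TRBV2 10.9% ± 1.74 and TRBV19 9.97% ± 0.858. These SDs take both samples of a mouse as separate values, so they do not give the spread between mice. Differences between these V segments were not tested. Its rank within a sample ran from 1, in the superior sample of mouse 3, to 4. TRBV3 was also the third by distinct rearrangements, after TRBV13-2 with 584 and TRBV19 with 466. TRBV2 had more templates (780) than TRBV3 but only 309 rearrangements, so it had 2.52 templates per rearrangement where TRBV3 had 1.60.

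**Figure D1:**
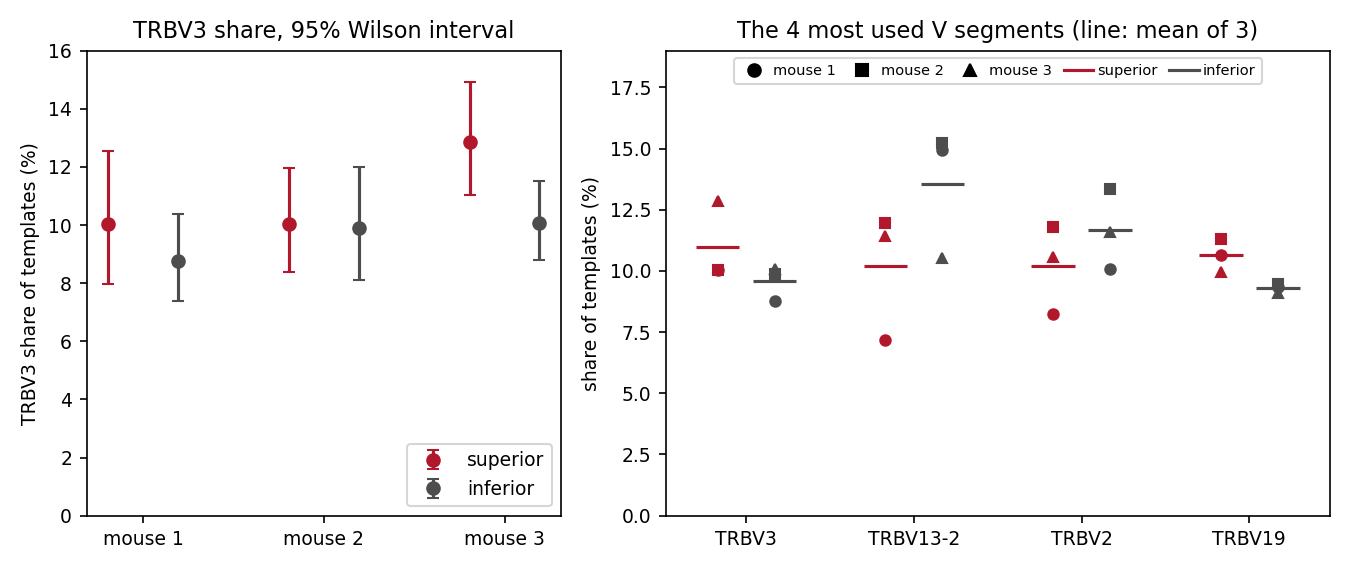
Left, TRBV3 share of templates (%) in each sample with its 95% Wilson interval, superior left of inferior within each mouse. Right, shares of TRBV3 and of the 3 V segments of nearest usage, with a symbol per mouse and a line at the mean of 3 samples. The TRBV3 samples sit between 8.76% and 12.9%.

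The J segments joined to TRBV3 were set against those joined to all other V segments in the same mouse, with both samples of a mouse summed. TRBJ2-7 was the most frequent partner. It held 36.9%, 33.8% and 30.03% of TRBV3 templates in mice 1, 2 and 3, against 32.0%, 37.1% and 27.8% of templates of the other V segments. The difference went both ways among the mice, and the log2 fold change was 0.06 (edgeR adjusted p = 0.830). TRBV3 templates were listed with 13 of the 14 J segments that occur in the tables. With TRBJ2-6 it had 0, and all other V segments together had only 2 templates with that J segment.

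By log2 fold change, the widest gaps in J usage were at TRBJ1-1, TRBJ1-2, TRBJ1-6 and TRBJ2-5. TRBJ1-1 held 10.2%, 4.98% and 8.11% of TRBV3 templates in mice 1, 2 and 3, against 4.92%, 4.53% and 5.65% of the others. TRBJ2-5 held 4.28%, 5.47% and 8.41% of TRBV3 templates, against 9.84%, 9.11% and 9.27% of the others. TRBJ1-1 was thus higher and TRBJ2-5 lower with TRBV3 in 3 of 3 mice, and for TRBJ2-5 the 2 sets of values did not overlap. TRBJ1-6 averaged 0.622% ± 0.3995 of TRBV3 templates and 2.05% ± 0.471 of the others (SD, n = 3 each), on 4 TRBV3 templates in all. TRBJ1-2 averaged 7.91% ± 4.63 with TRBV3 and 4.98% with the others, and its TRBV3 values spread widely between mice.

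None of the 12 J segments tested passed with templates counted (0%), and 2 had an unadjusted p under 0.05. The log2 fold changes of TRBV3 over the other V segments were 0.60 for TRBJ1-1, 0.65 for TRBJ1-2, -1.82 for TRBJ1-6 and -0.57 for TRBJ2-5, each with an edgeR adjusted p of 0.212. With 1 mouse left out, TRBJ1-1 ran from 0.40 without mouse 1 to 0.75 without mouse 2. TRBJ1-2 fell to 0.28 without mouse 2, and TRBJ2-5 ran from -0.95 without mouse 3 to -0.34 without mouse 1. With each rearrangement counted once, 2 J segments passed. These were TRBJ1-1 at a log2 fold change of 0.62 (edgeR adjusted p = 0.0333) and TRBJ2-5 at -0.69 (edgeR adjusted p = 0.0291). On that scale TRBJ1-1 made up 12% of TRBV3 rearrangements and 7.74% of the others, and TRBJ2-5 made up 8.22% and 13.3%. With templates counted but without mouse 1, TRBJ1-6 was called, at a log2 fold change of -2.44 (edgeR adjusted p = 0.0140). That call rests on 1 TRBV3 template in the superior sample of mouse 2 and 1 in that of mouse 3, with 0 in their inferior samples. DESeq2 called 0 of the 12 J segments.

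Smaller log2 fold changes were found for the remaining J segments tested. TRBJ1-3 averaged 7.34% with TRBV3 and 7.20% with the others, and TRBJ1-4 averaged 5.51% and 7.40%. TRBJ1-5 averaged 5.47% and 4.39%, and TRBJ2-1 averaged 7.49% and 9.22%. TRBJ2-2, TRBJ2-3 and TRBJ2-4 averaged 6.59%, 5.38% and 6.14% with TRBV3, and 5.74%, 5.52% and 6.67% with the others. Among the 16 V segments with at least 100 templates, the J usage most like that of TRBV3 was that of TRBV19, with a Jensen-Shannon distance of 0.1302 over the J segments of all 6 samples pooled. TRBV31 (0.136) and TRBV13-3 (0.137) came next, and these distances carry no interval.

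TRBD1 was called in a larger share of TRBV3 templates than of the others, by a difference that the permutation over 3 mice used here cannot bring past the threshold. TRBD1 was called in 60.4%, 60.2% and 51.4% of TRBV3 templates in mice 1, 2 and 3, against 42.2%, 42.1% and 48.6% of the others. The share was higher with TRBV3 in 3 of 3 mice and the sets did not overlap, although mouse 3 had a much narrower gap. The mean difference was 13.04 percentage points (SD 8.89, n = 3), with p = 0.25 by an exact two-sided sign-flip permutation over mice, the smallest value 3 mice allow. TRBD2 averaged 25.7% ± 3.02 with TRBV3 and 36.6% ± 4.01 with the others (SD, n = 3 each), and the D call was left unresolved in 17.0% and 19.2%. A high TRBD1 share was not particular to TRBV3. With all samples pooled it was 56.2% for TRBV3, 55.3% for TRBV26, 55.2% for TRBV29 and 52.6% for TRBV20. The lowest share among the 17 V segments with at least 100 templates was 31.1%, for TRBV4. Differences between single V segments were not tested.

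With templates of all mice pooled, the TRBD1 share was higher with TRBV3 in both J clusters. No values by mouse are given for the clusters. With TRBJ1 segments TRBD1 was called in 76.3% of 249 TRBV3 templates and 68.7% of 1995 others, and with TRBJ2 segments in 45.6% of 472 and 33.8% of 4320. TRBD2 was called in 10 of the 249 TRBV3 templates with a TRBJ1 segment (4.02%), a join that the order of the segments does not normally give, and in 5.61% of the others. D calls rest on the few D bases left after trimming, so some are uncertain. With each rearrangement counted once the TRBD1 difference was 8.92 percentage points, and with unresolved calls left out it was 14.2. By sample, TRBD1 was called in 49.3%, 64.5% and 56.8% of TRBV3 templates in the superior samples of mice 1, 2 and 3, against 66.7%, 55.0% and 47.1% in the inferior samples, so the groups overlapped.

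**Figure D2:**
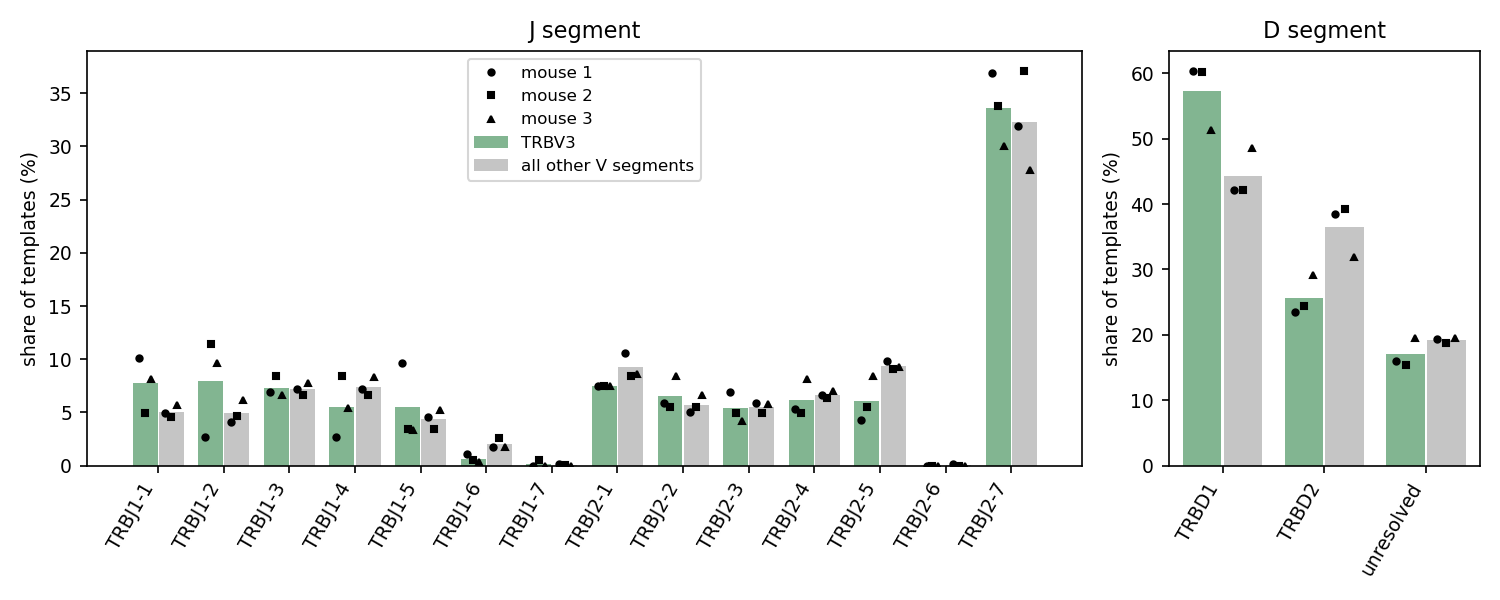
Share of templates (%) by J segment (left) and D segment (right) for TRBV3 and for all other V segments. Bars are means of 3 mice and symbols are mice. TRBD1 averaged 57.3% with TRBV3 and 44.3% with the others, and TRBJ2-5 is lower with TRBV3 in each mouse.

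Clone size differed widely between J segments, for TRBV3 and for the other V segments alike. TRBV3 rearrangements with TRBJ2-7 carried 2.42 templates each (237 templates in 98 rearrangements), while those with TRBJ1-1 carried 1.04 (56 in 54). The other V segments had 2.29 and 1.06 with these J segments. TRBJ2-7 therefore took about the same share of distinct rearrangements with TRBV3 (21.8%) as with the others (22.1%), well under its share of templates. With TRBJ2-1, TRBV3 rearrangements had 1.20 templates each and the others 1.54, and TRBV3 was lower in 3 of 3 mice. No test was run on these values by J segment, and how the assay's J primers bear on them was not tested.

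**Figure D3:**
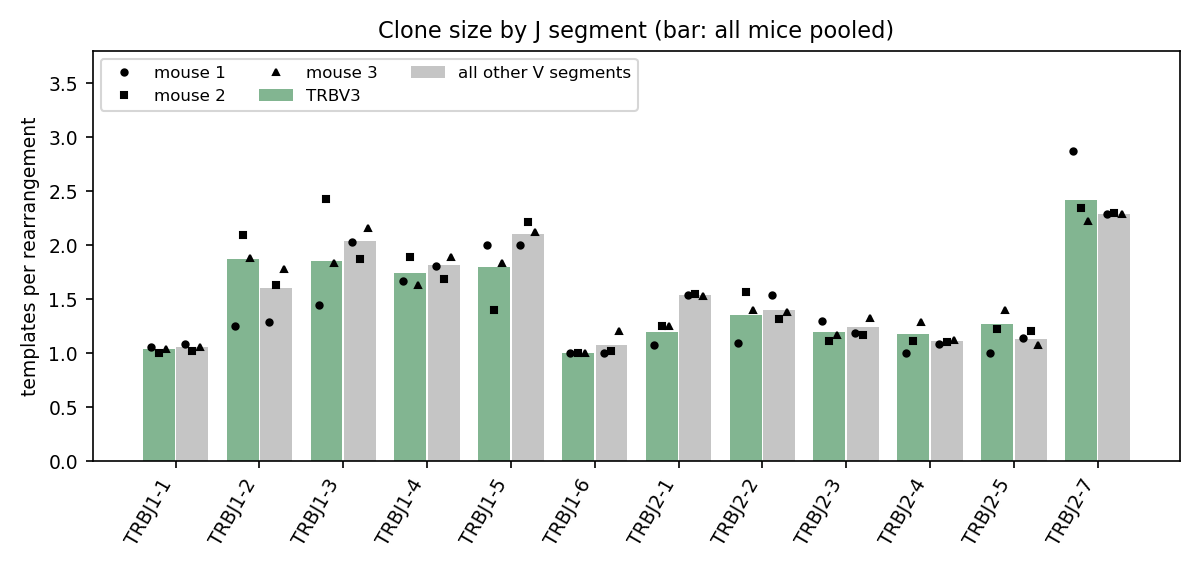
Templates per rearrangement by J segment for TRBV3 and all other V segments, with TRBJ1-7 and TRBJ2-6 left out for lack of rearrangements. Bars pool the 3 mice and symbols are mice. TRBJ2-7 stands highest for both, at 2.42 and 2.29, and TRBJ1-1 sits at 1.04 and 1.06.

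Over all J segments, clone size with TRBV3 differed from that of the other V segments by less than the spread between mice. TRBV3 had 1.56, 1.69 and 1.58 templates per rearrangement in mice 1, 2 and 3, against 1.58, 1.61 and 1.60 for the other V segments. The difference in means was 0.012 (SD 0.0597, n = 3 mice), with p = 1 by an exact sign-flip permutation, and its sign turned when TRBJ2-7 was left out (-0.0234). Of the 450 TRBV3 rearrangements, 61.8% (interval 57.2% to 66.2%) had 1 template, against 65.7% (interval 64.2% to 67.2%) of the others. Rearrangements of 5 or more templates made up 2.44% with TRBV3 (11 of 450) and 2.96% with the others. Among TRBV3 rearrangements, 42 had a base before the cysteine codon that differed from the consensus, and all 42 had 1 template. The cause of these mismatches was not tested.

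Between groups, TRBV3 had 1.31, 1.80 and 1.59 templates per rearrangement in the superior samples of mice 1, 2 and 3, against 1.74, 1.57 and 1.57 in the inferior samples. The direction differed between mice and the groups overlapped. The difference of means was -0.0585, with p = 0.9 by an exact two-sided permutation of 3 against 3. That permutation does not pair the samples by mouse and cannot go below 0.1. Without mouse 1 the difference was 0.125, of the opposite sign.

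TRBV3 reads often followed the consensus close to its end. Of TRBV3 templates with a starting cysteine, 94.4% followed the consensus through CDR3 base 12, 72.3% through base 13, 56.3% through base 14 and 43.3% through base 15. Base 16 of the consensus is a G, which can also come from a D segment, and 31.4% of templates followed it that far. The CDR3 began with cysteine, alanine and a pair of serines in 98.0% of TRBV3 templates, against 64.0% of templates of the other V segments.

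At CDR3 position 5, which the consensus codon encodes as leucine, TRBV3 had leucine in 51.9% ± 0.840 of templates and the others in 17.0% ± 2.91 (SD, n = 3 mice each). Leucine in TRBV3 varied little between mice, at 51.9%, 52.7% and 51.1%. Serine (11.4% and 3.21%) and phenylalanine (7.87% and 1.92%) were also higher with TRBV3 than with the others in 3 of 3 mice. Phenylalanine in TRBV3 varied more, at 13.9%, 3.98% and 5.74% in mice 1, 2 and 3, and clonotype 1-1 of mouse 1 has it at this position. Glutamine (1.23% and 17.5%) and aspartate (0.837% and 13.5%) were lower with TRBV3 in 3 of 3 mice. This position lies close to the join, and 43.3% of TRBV3 templates followed the consensus through the last base of its codon. It can hold V-encoded or other bases, and it was described and not tested.

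TRBV3 CDR3s averaged slightly shorter than those of other V segments. Counted from the cysteine to the closing phenylalanine, they averaged 13.63, 13.52 and 13.57 residues in mice 1, 2 and 3, against 13.67, 13.77 and 13.75 for the others. The mean difference was -0.157 residues (SD 0.107, n = 3), of the same sign in 3 of 3 mice, with p = 0.25 by an exact sign-flip permutation, again the smallest value possible. With each rearrangement counted once it was -0.201. TRBV3 lengths ran from 10 to 18 residues, and TRBV3 was the sixth shortest of the 17 V segments compared.

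The length gap lay mainly on the long side. Length 15 held 16.6% ± 4.08 of TRBV3 templates and 21.2% ± 1.32 of the others (SD, n = 3 each), lower in 3 of 3 mice, with a log2 fold change of -0.35 (edgeR adjusted p = 0.790). Lengths of 16 or more held 6.20% and 8.06%, lower with TRBV3 in 3 of 3 mice, and lengths of 12 or fewer held 19.4% and 17.3%. Length 14 held 40.6%, 26.4% and 29.3% of TRBV3 templates in mice 1, 2 and 3, so mouse 1 stood above the others there, against 27.9%, 28.5% and 29.9% for the other V segments. Mouse 1 had 29 superior and 47 inferior TRBV3 templates of that length, of which clonotype 1-1 gave 2 and 11. Of the 10 lengths tested, 0 passed (0%), with 0 at an unadjusted p under 0.05 in edgeR and 0 called by DESeq2.

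**Figure D4:**
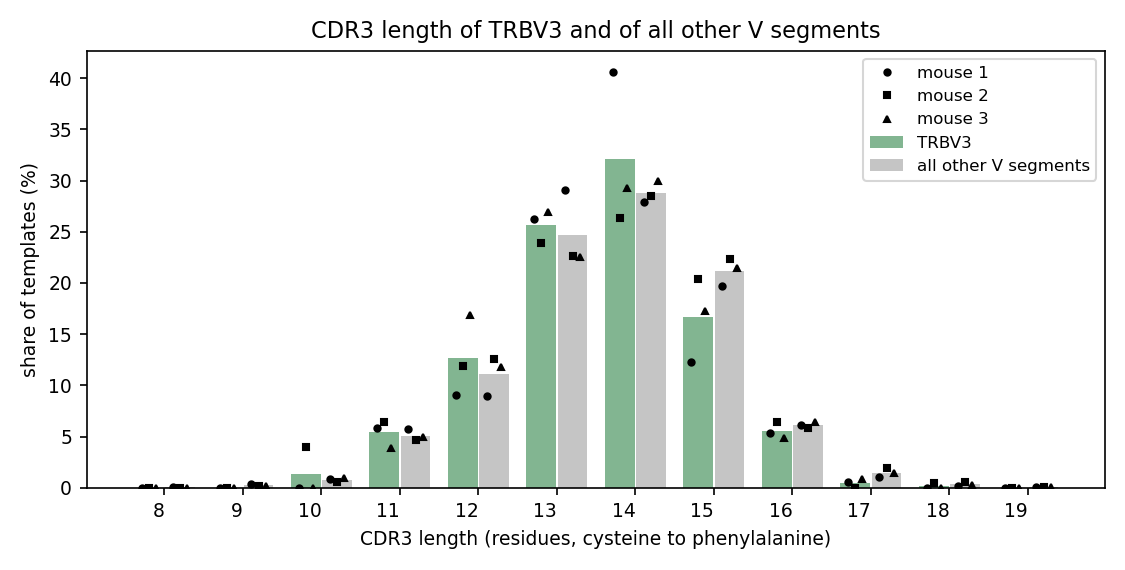
Share of templates (%) at each CDR3 length in residues, for TRBV3 and all other V segments. Bars are means of 3 mice and symbols are mice. Length 15 sits lower with TRBV3 in each mouse, and the mouse 1 value at length 14 (40.6%) stands above the rest.

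Between groups, TRBV3 CDR3s averaged 13.69, 13.23 and 13.69 residues in the superior samples of mice 1, 2 and 3, against 13.59, 13.88 and 13.48 in the inferior samples. The superior sample of mouse 2 was the shortest. The difference of means was -0.115 residues, with p = 0.7 by an exact two-sided permutation of 3 against 3, and without mouse 2 it was 0.153. In that sample 7.27% of TRBV3 templates had 10 residues, the length of clonotype 2-4, and no other sample listed a TRBV3 CDR3 of that length.

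In the middle of the CDR3, TRBV3 had less serine and more asparagine than the other V segments. These residues were counted from position 6 to the sixth residue from the end, and gave 2568 TRBV3 residues weighted by templates. The window can take in residues that the J segment encodes, and the part of J usage in the result was not tested as such. Serine made up 5.46%, 5.93% and 5.33% of them in mice 1, 2 and 3, against 8.69%, 8.64% and 7.94% with the others, and the sets did not overlap. Asparagine made up 8.41%, 8.76% and 10.2% of TRBV3 residues, against 6.90%, 7.495% and 8.22%. It was higher with TRBV3 in 3 of 3 mice. These 2 of the 19 amino acids tested passed (10.5%). The log2 fold change was -0.59 for serine (edgeR adjusted p = 0.000193) and 0.28 for asparagine (edgeR adjusted p = 0.0487).

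Residues of 1 clonotype and templates of 1 clone are not independent counts. Both calls were lost when clones were counted once, that of serine also without mouse 1, and that of asparagine with any 1 of the 3 mice left out (edgeR adjusted p from 0.210 to 0.303). At positions 6 and 7 only, the furthest from the J segment, the log2 fold change was 0.041 for asparagine (edgeR adjusted p = 0.919) and -0.70 for serine (edgeR adjusted p = 0.420), with neither called. With each rearrangement counted once neither residue was called, the log2 fold changes being -0.44 for serine (edgeR adjusted p = 0.0631) and 0.27 for asparagine (edgeR adjusted p = 0.305). DESeq2 called none, with serine at -0.60 (adjusted p = 0.386), and without mouse 1 serine stood at -0.56 (edgeR adjusted p = 0.0877). Glycine, the main residue that D segments encode, made up 33.6% of central residues with TRBV3 and 32.6% with the others. Leucine (2.46% and 3.31%), tyrosine (1.94% and 2.71%) and phenylalanine (0.249% and 0.674%) were lower with TRBV3 in 3 of 3 mice and did not pass the test.

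TRBV3 combined with each J segment was next compared between groups. Of 172 V-J combinations of all V segments, 0 were called, a background of 0%, and DESeq2 called 0. At an unadjusted p under 0.05 there were 7 (4.07%), of which 1 was among the 11 TRBV3 combinations. That was TRBV3 with TRBJ1-3. It had 8, 10 and 20 templates in the superior samples of mice 1, 2 and 3, against 5, 7 and 2 in the inferior samples. As shares of TRBV3 templates these were 11.9%, 9.09% and 13.7%, against 4.17%, 7.69% and 1.07%, and the groups did not overlap. The log2 fold change was 1.76 (SE 0.61, edgeR adjusted p = 0.768), and it was 0.92 without mouse 3 and 2.68 without mouse 2. The median over the 11 TRBV3 combinations was -0.07, the same as over all 172. TRBV3 with TRBJ2-7 had 20, 46 and 49 templates in the superior samples, against 49, 22 and 51 in the inferior samples, with the direction of its share differing between mice.

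Single clonotypes were compared between the 2 samples of a mouse by Fisher's exact test, which compares those 2 libraries and not the conditions. A clonotype was tested where it had 5 or more templates in the mouse, and p-values were adjusted over all V segments of that mouse. In mouse 1, 0 of 2 TRBV3 clonotypes passed (background 16.3%), in mouse 2, 0 of 4 (background 20.9%), and in mouse 3, 4 of 9 (background 26.3%). Over the 3 mice TRBV3 had 4 of 15 called where all V segments had 31 of 143 (21.7%). The TRBV3 calls rest on 5 or 6 templates against 0, and a count of 0 allows up to 3 templates.

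All 4 calls lay in mouse 3, with templates in its superior sample and 0 of 1855 in its inferior sample. Each of the 4 reached the minimum of 5 templates through the superior sample alone, the smaller library of that mouse at 1136 templates. The filter and library size thus bear on both the calls and their direction, from which no conclusion is drawn. At a minimum of 3 counts, 0 of 58 TRBV3 clonotypes passed. Clonotypes 3-2 (TRBJ1-2) and 3-3 (TRBJ2-7) had 6 templates each, and clonotypes 3-4 (TRBJ2-7) and 3-5 (TRBJ1-3) had 5 each. The adjusted p was 0.0320 for all 4 (Fisher's exact test). In mouse 2, clonotypes 2-3 and 2-4, both with TRBJ2-7, had 7 templates in the superior sample and 0 in the inferior sample (Fisher's exact adjusted p = 0.0652). With rearrangements that share CDR3 bases merged, these had 8 and 0, and both passed (Fisher's exact adjusted p = 0.0414). In mouse 1 the order was the other way, with clonotype 1-2 at 0 templates in the superior sample and 9 in the inferior sample (Fisher's exact adjusted p = 0.1298). Clonotypes 2-3, 2-4 and 1-2 likewise reached the minimum through 1 sample alone.

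Clonotype 1-1 was the largest, with 2 templates in the superior sample of mouse 1 and 11 in its inferior sample (Fisher's exact adjusted p = 0.336). It made up 0.2999% of the superior and 0.803% of the inferior templates, with intervals of 0.0823% to 1.09% and 0.449% to 1.43% that overlap. In mouse 2, clonotype 2-1 (TRBJ1-2) had 6 and 3 templates in the superior and inferior samples, and clonotype 2-2 (TRBJ1-4) had 3 and 5. In mouse 3, clonotype 3-1 (TRBJ2-7) had 5 and 2, and clonotype 3-9 (TRBJ2-5) had 1 and 4. Clonotypes 3-6 (TRBJ2-5), 3-7 (TRBJ1-5) and 3-8 (TRBJ2-4) had 2 and 3 each. None of these 8 clonotypes passed. TRBJ2-7 was the J segment of 7 of the 15 clonotypes tested and TRBD1 the D segment of 11, with TRBD2 in 2 and the D call unresolved in the other 2. The same counts are not given here for other V segments, so they are not read as a trait of TRBV3. TRBJ2-7 rearrangements were large with TRBV3 and with the others alike, at 2.42 and 2.29 templates each.

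The remaining clonotypes among the 3 largest of their sample had 3 or 4 templates each, and their nucleotide sequence was not in the other sample of the mouse. They were 1 clonotype with TRBJ1-3 and public clonotypes 1 and 2 in the superior sample of mouse 1, and 4 clonotypes in the inferior samples, with TRBJ2-7 in mouse 1, TRBJ1-3 and TRBJ2-7 in mouse 2, and TRBJ2-2 in mouse 3.

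**Figure D5:**
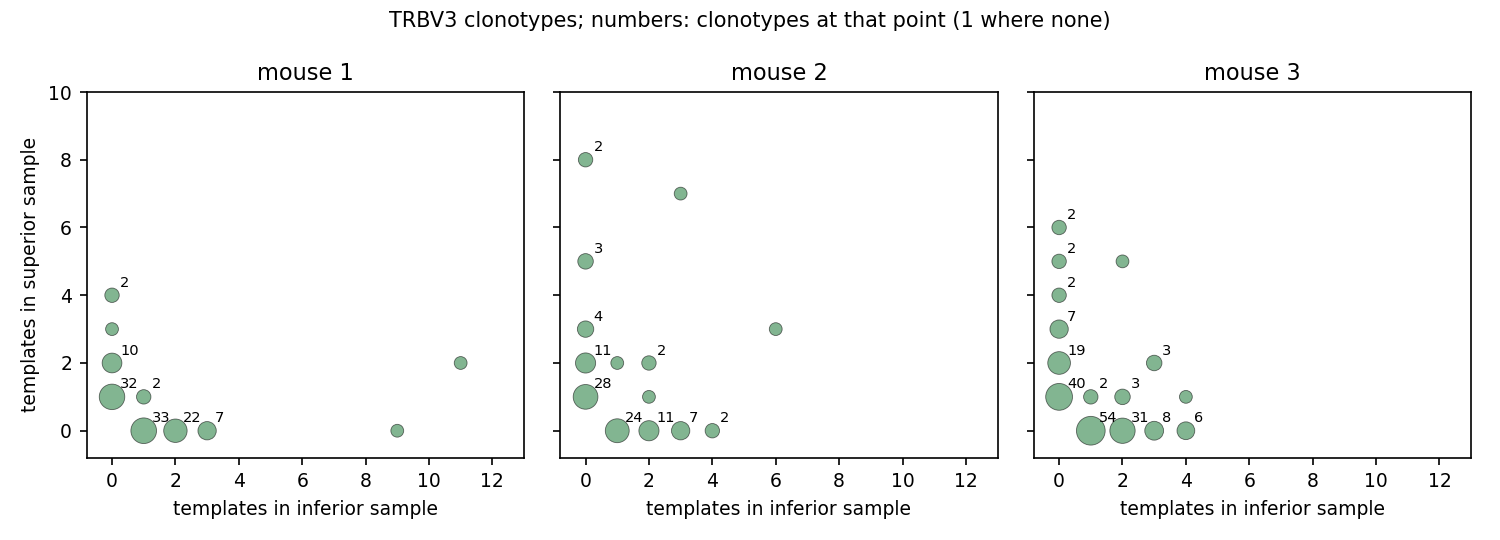
Templates of each TRBV3 clonotype in the superior sample (vertical axis) and the inferior sample (horizontal axis) of each mouse, with rearrangements that share CDR3 bases merged. Points grow with the number of clonotypes, printed beside them where it is over 1. Most points lie on an axis, and the 2 clonotypes of mouse 2 at 8 and 0 and the point of mouse 1 at 2 and 11 stand out.

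Few TRBV3 clonotypes were found in both samples of a mouse. With rearrangements that share V segment, CDR3 bases and J segment merged, 3 of 111, 6 of 98 and 10 of 181 TRBV3 clonotypes were in both samples of mice 1, 2 and 3, against 34 of 1018, 48 of 953 and 56 of 1455 clonotypes of other V segments. TRBV3 thus averaged 4.78% ± 1.83 and the others 4.08% ± 0.871 (SD, n = 3 each), a difference of 0.708 percentage points with p = 0.5 by an exact sign-flip permutation. A clonotype of 1 template cannot be in both samples, so these shares depend on depth. Of TRBV3 clonotypes with 2 or more templates in the mouse, 3 of 46, 6 of 46 and 10 of 87 were in both samples. On that scale TRBV3 averaged 10.4% and the others 9.57%. These 19 shared clonotypes had between 2 and 13 templates, and 4 of them had 1 template in each sample. Of the 18 merged TRBV3 clonotypes with 5 or more templates, 8 were in both samples.

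Between mice, 3 of 381 TRBV3 clonotypes, defined by CDR3 residues and J segment, were found in 2 mice (0.787%), against 27 of 3370 for the other V segments (0.801%). No TRBV3 clonotype was found in all 3 mice. By nucleotide sequence 3 of 428 TRBV3 rearrangements recurred in a second mouse (0.701%, interval 0.239% to 2.04%), against 6 of 3810 of the others (0.157%, interval 0.0722% to 0.343%). These intervals overlap. TRBV3 thus gave 3 of the 9 recurrent nucleotide rearrangements, and no test was run on the difference.

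Public clonotype 1, with TRBJ2-7 and a CDR3 of 12 residues, had 3 and 2 templates in the superior and inferior samples of mouse 1, and 3 and 1 in those of mouse 2. It had 3 nucleotide forms, 1 of them in both mice. Public clonotype 2, with TRBJ2-7 and 13 residues, had 4 and 3 templates in the superior samples of mice 1 and 2 and 0 in their inferior samples, in 1 form that both mice shared. Public clonotype 3, with TRBJ2-1 and 15 residues, had 1 template in mouse 1, from the inferior sample. In mouse 3 it had 1 superior and 3 inferior templates. Mice 2 and 3 shared no TRBV3 clonotype.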

How the data were processed

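The tables list T-cell receptor beta rearrangements from genomic DNA of 6 samples, with no RNA measured. Per the file headers, the authors deposited a whole-number count per rearrangement and the fraction each makes of its sample, which equals the count over the sample's total. Genome build mm10 is named in the submitters' processing notes, and no aligner, caller or filter is given in the sources used here. Gene positions come from RefSeq's table for GRCm38.p6, and all 29 V and 14 J names matched a symbol in it.

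Rows were chosen by their deposited V call and named in IMGT style. Their counts were summed per V segment, V-J combination, J segment, CDR3 length and central residue, over all V segments. Features with 10 or more counts were tested with edgeR 4.0.16 in R 4.3.3 (glmQLFit and glmQLFTest, common dispersion, the total count as library size) and adjusted by Benjamini-Hochberg. TRBV3 was set against other V segments with the mouse as a block. The main comparisons of superior with inferior samples did not pair samples by mouse, and the block was an alternative there. Single values used exact permutations, and clonotypes of 5 or more counts Fisher's exact test (SciPy 1.17.1). CDR3 features left out 2 TRBV3 rearrangements, of 2 templates, without a starting cysteine. The scripts were tested on simulated data. Alternatives were DESeq2 1.42.0, TMM, no filter, each rearrangement counted once, the block, and each mouse left out. Counting each merged clonotype once was chosen after seeing the data, and so were the other V segments in the count of similar CDR3s.

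Named items were TRBV3, the 3 V segments of nearest usage, the 3 of most similar J usage, all J segments listed with TRBV3, the 3 largest TRBV3 clonotypes of each sample, those of 5 or more counts in a mouse, those past the Fisher threshold and those found in 2 or more mice. The members and these lists were chosen with earlier results of these data known. Numbers pair the samples because same-numbered samples come from the same mouse. The deviations of paired samples from their group means correlated at 0.067, 0.665 and -0.348 for mice 1, 2 and 3 over 29 V segments. Whether the 2 samples of a mouse are separate preparations of cells is not stated beyond their titles.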

Additional observations from a re-analysis of the deposited data

How the results depend on the processing

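TRBV3 usage between groups kept its sign and was never called, with log2 fold changes from 0.10 to 0.29 and 0.20 with the replicate block. That block, pairing samples by mouse, changed no call between groups. Among 306 alternative values of 34 results, 252 kept their direction and side of the threshold and 18 reversed; the causes were not tested. The central residue count (main 2) was 0 with DESeq2, with each rearrangement or merged clonotype counted once and at positions 6 and 7 only, 1 with no replicate block, TMM or no filter, and 0 to 1 with a mouse left out. The J segment count (main 0) was 2 with each rearrangement or merged clonotype counted once and 0 to 1 with a mouse left out; the CDR3 length count (main 0) was 0 to 1. Fisher calls of TRBV3 clonotypes (main 4 of 15) were 0 of 58 at a minimum of 3 counts, against 3 of 573 over all V segments, and 6 of 18 with clonotypes merged, against 39 of 176. At a minimum of 10 counts they were 0 of 1, where the 4 called clonotypes could not be tested. Templates per rearrangement, TRBV3 minus others, were -0.00445 merged, -0.0234 without TRBJ2-7 and -0.0225 to 0.0294 with a mouse left out. Between groups that difference ran from -0.205 to 0.125, and mean length from -0.278 to 0.153. Log2 fold changes of J segments that were not called also turned: TRBJ2-1 to 0.080 (rearrangements once) and 0.0097 (merged), TRBJ2-7 to -0.0073 (rearrangements once), and with TMM TRBJ2-3 to 0.039 and TRBJ2-4 to 0.052. With a mouse left out TRBJ1-3 ran from -0.15 to 0.16, TRBJ1-5 from -0.42 to 0.66, TRBJ2-3 from -0.27 to 0.13 and TRBJ2-4 from -0.33 to 0.022. CDR3 lengths 12, 13 and 14 ran from -0.030 to 0.35, -0.037 to 0.19 and -0.060 to 0.24. With 67 to 187 TRBV3 templates per sample and 3 mice, small differences were not detectable.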

Other observations

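Near neighbours of TRBV3 CDR3s in other mice were counted. Of 382 TRBV3 clonotypes counted per mouse, 84 (21.99%) had a TRBV3 clonotype of the same J segment and length in another mouse that differed by exactly 1 residue. Among the 16 other V segments with at least 100 templates the highest share was 14.5% for TRBV13-2 (59 of 406), with 11.3% for TRBV2 (31 of 274) and 10.3% for TRBV19 (40 of 389). The number of clonotypes, CDR3 length, J usage and V-encoded residues differ between V segments, and their part in these shares was not tested. The differences were not tested either, since clonotypes of a mouse are not replicates. Among large clonotypes, clonotype 2-3 lay 1 residue from clonotype 3-3, and clonotype 1-2 lay 1 residue from a clonotype of 2 templates in mouse 2.

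Some TRBV3 CDR3s were also listed with another V segment. Of 381 TRBV3 clonotypes, 20 (5.25%) had the same CDR3 residues and J segment with 1 or more of 11 other V segments. The highest counts were with TRBV15 (5, among its 153 clonotypes) and TRBV14 (3, among 35), and TRBV19 had 2 among 389. The same share was not computed for other V segments. Public clonotype 2, found with TRBV3 in 2 mice, was also listed with TRBV19.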
